A study of Mus musculus with 12 samples.

Results

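The nuclear-encoded respiratory chain genes were followed in B16F10 cells, a mouse melanoma line, after treatment with DMSO (control), 5-aza-2'-deoxycytidine (DAC), sulforaphane (SFN) or DAC + SFN. The members were the gene symbols of the count files that name subunits of complexes I to V (symbols starting with Nduf and a letter a, b, c, s or v with a number, Uqcr, Cox4 to Cox8 or Atp5, and Sdha to Sdhd). They were 84 of 24421 symbols, 37 in complex I, 4 in complex II, 8 in complex III, 18 in complex IV and 17 in complex V. RNA sequencing counts of 3 independent biological repeats (replicates) in each of the 4 groups were used, 12 libraries in all. By the labels, DAC was given at 25 nM for 72 h, SFN for 48 h and both in the combination, and control received DMSO, for which the labels and the study's methods give different percentages. The labels give DMSO for control only. In the study's methods DAC was dissolved in DMSO and SFN in water, so SFN and control may also differ in vehicle. All groups were of this one established line, and the labels name no genetic change. The labels give SFN as 5 nM in the single treatment and as 5 µM in the combination, whereas the study's methods give 5 µM for both, so the SFN dose in the comparison of DAC + SFN with SFN and in the interaction rests on the methods.

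The respiratory chain of the inner mitochondrial membrane passes electrons from NADH (complex I) and succinate (complex II) through ubiquinone, complex III and cytochrome c to complex IV, which reduces oxygen. Complexes I, III and IV pump protons, and complex V, the ATP synthase, uses the returning protons to make ATP. Most subunits are encoded in the nucleus and a few in mitochondrial DNA, and their nuclear promoters are known targets of NRF1, GABP (an ETS factor), YY1 and the estrogen-related receptors. SFN is an isothiocyanate that activates the antioxidant factor NRF2, and DAC, a cytidine analog, is taken into DNA and traps DNA methyltransferases. Subunits encoded in mitochondrial DNA were not analysed here.

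The libraries held 15880957 to 27291436 counts, and the 10 genes with the most counts took 6.03% to 7.004% of each. Values are counts scaled to a common library size (counts per 1e+06 counts, CPM), and the 11638 genes that reached 1 CPM in 3 or more libraries were tested, 75 of the 84 members among them. Tests were edgeR's quasi-likelihood F-test with the replicate number as a block, and a gene was called at a Benjamini-Hochberg adjusted p under 0.05. Each percentage of all tested genes called, given beside a count of members, is the background for that count. A count given without such a share has no background. The 8 melanocyte marker genes were all tested and summed to 22430 to 31210 CPM, while endothelial markers summed to at most 0.766 CPM. The members' median log2 CPM was lowest in control replicate 1 (6.75, against 6.86 to 7.09 in the other libraries), while the median over all tested genes lay between 5.18 and 5.21 in every library. Results that rest on this library are given with and without it. In bulk RNA, a larger share of cells with a transcript and more transcript per cell cannot be told apart.

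In control, the members differed widely in level once counts were divided by transcript length. The most abundant transcript of each complex, in CPM per kb, was Ndufa4 in complex I (755 ± 18.3, SD, n = 3), Sdhb in complex II (298 ± 10.8), Uqcrh in complex III (335 ± 15.2), Cox4i1 in complex IV (509 ± 17.8) and Atp5b in complex V (971 ± 103). Atp5b encodes the catalytic β subunit of the ATP synthase and was the highest of all members, and Cox4i1 encodes the main form of a core-binding subunit of cytochrome c oxidase. Ndufa4 falls in complex I by its symbol, although its protein is known as a subunit of complex IV. At the low end of the tested members were Atp5sl and Atp5s, with 4.44 ± 0.296 and 5.72 ± 0.551 CPM per kb, whose proteins are not subunits of the synthase. Together the members took 1.23% to 1.46% of the counts of a library.

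**Figure D1:**
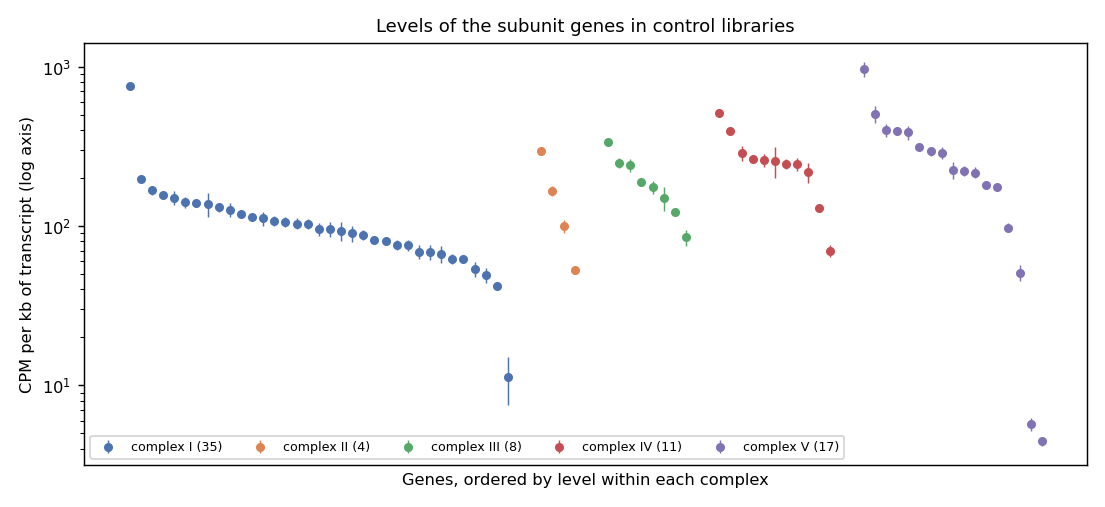
CPM per kb of transcript (log axis) in control for the 75 tested genes, ordered within each complex. Points are means and bars SD of 3 replicates. Ndufa4 (755) and Atp5b (971) stand above the rest of their complexes, and Atp5s (5.72) and Atp5sl (4.44) below.

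For subunits with more than one gene, B16F10 cells used the widely expressed form. Cox4i1 made up at least 99.99% of the per-kb level of its pair in every library, with a single count of the hypoxia- and lung-type Cox4i2 over all 12 libraries. Cox6a1 made up at least 99.9% of its pair, with 0 to 3 counts per library of the heart and muscle form Cox6a2. Cox6b2, Cox7b2, Cox8b and Cox8c, forms known from testis or muscle, had 0 counts in all 12 libraries, which allows up to 3 counts, or 0.110 to 0.189 CPM, per library (counting error only). Their partners Cox6b1, Cox7b and Cox8a were all among the tested members. In the COX7A family, Cox7a2 made up 66.1% to 70.05% of the per-kb level and Cox7a2l, whose protein joins complexes III and IV into supercomplexes, 29.6% to 33.9%. The muscle form Cox7a1 had 2 to 15 counts per library, 99 in all. Ndufa4l2, a hypoxia-induced relative of Ndufa4, had 0 to 10 counts.

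The c ring of the ATP synthase is built from a protein that Atp5g1, Atp5g2 and Atp5g3 encode with an identical mature sequence. By level per kb, Atp5g3 made up 49.96% to 60.3% of the family, Atp5g2 34.1% to 44.2% and Atp5g1 5.07% to 7.13%. Atp5g2 is uncertain, since 86.9% of the 75-base stretches of its transcript also occur in other genes, and only uniquely aligned reads were counted. The same holds for Atp5l (subunit g), with 76.0% shared, mostly with its pseudogenes. Ndufs5 had 0 counts in all 12 libraries although only 17.1% of its stretches are shared, so no level is drawn for it. Of the 84 members, 49 share no such stretch with another gene.

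In the main fit, SFN single treatment was the condition with the most members called higher. The called members, 14 in all, lay in complexes I (4), III (2), IV (5) and V (3), and none was called lower. Over all tested genes 8.27% were called higher and 5.65% lower, against 18.7% of the 75 tested members higher. All 14 changed by less than 2-fold, from 1.13-fold to 1.30-fold. With a fold change over 2 also required, 0 members were called, against 1.28% of all tested genes. The order of conditions was not kept without the replicate block. There 0 members were called with SFN, and Uqcr10 was called with DAC + SFN.

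The smallest p belonged to Uqcr10, a small subunit of complex III on chromosome 11. Uqcr10 stood at 95.7, 115 and 104 CPM in the control replicates and at 125, 139 and 128 CPM with SFN. All SFN libraries were above all control libraries. The log2 fold change was 0.32 (SE 0.06, edgeR quasi-likelihood adjusted p = 0.00174), and the replicate differences were 0.38, 0.27 and 0.30. The Uqcr10 call was kept in each of the 6 fits that left out 1 control or SFN library.

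Small subunits of cytochrome c oxidase followed. Cox7c stood at 34.1, 38.8 and 40.2 CPM in control and at 44.1, 51.2 and 51.9 CPM with SFN. The groups did not overlap, and the log2 fold change was 0.38 (SE 0.08, edgeR adjusted p = 0.00669), with replicate differences of 0.37, 0.40 and 0.37. Cox7b stood at 225, 258 and 255 CPM in control and at 289, 309 and 318 CPM with SFN. Here too every SFN library was above every control library, with a log2 fold change of 0.31 (SE 0.07, edgeR adjusted p = 0.00917). Both calls were lost without control replicate 1 (adjusted p = 0.0527 and 0.0738) or without SFN replicate 2 (0.051 and 0.067). Cox5a, Cox6b1 and Cox7a2 completed the 5 of complex IV, with log2 fold changes of 0.25, 0.18 and 0.20. Cox8a had the largest estimate of all members with SFN, 0.42 (SE 0.14), but was not called (edgeR adjusted p = 0.0624), with 108, 148 and 169 CPM in control and 168, 213 and 180.2 CPM with SFN, so the groups overlapped.

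In complex V, Atp5l stood at 149, 166 and 166 CPM in control and at 182, 201 and 204 CPM with SFN (log2 fold change 0.29, SE 0.07, edgeR adjusted p = 0.0125), with its counts uncertain as above. That call was lost without control replicate 1, SFN replicate 2 or SFN replicate 3. The c subunit genes Atp5g1 and Atp5g3 rose by 0.22 and 0.18, and in both the ranges of the groups overlapped. In complex I, only accessory subunits were among the called: Ndufb6, Ndufb3, Ndufa7 and Ndufa3. Ndufb6 stood at 46.2, 52.2 and 61.0 CPM in control and at 54.4, 66.6 and 71.2 CPM with SFN. It was higher with SFN in every replicate although the groups overlapped (log2 fold change 0.27, SE 0.07, edgeR adjusted p = 0.0177), and it was not called without control replicate 1 or 2 or SFN replicate 2 or 3. The other named change in complex I was that of Ndufb2, 19.1, 25.6 and 36.8 CPM in control and 32.2, 35.9 and 34.9 CPM with SFN, which overlapped and was not called (log2 fold change 0.37, SE 0.15, adjusted p = 0.112). Uqcrh, the hinge subunit of complex III that contacts cytochrome c1, stood at 152, 166 and 158 CPM in control and rose to 184, 179 and 181 CPM (log2 fold change 0.19, SE 0.06, edgeR adjusted p = 0.0377).

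Members that were not called also had mostly positive estimates. With SFN, 70 of the 75 tested members had a positive log2 fold change, against 51.0% of all tested genes, and the members' median was 0.13, against 0.004 over all tested genes. The median was 0.13 in complex I, 0.11 in complex II, 0.15 in complex III, 0.18 in complex IV, where all 11 tested members were positive, and 0.11 in complex V. Within replicates 1, 2 and 3 the members' median differences were 0.17, 0.09 and 0.14. In 23 members all SFN libraries lay above all control libraries, against 10.9% of all tested genes, and in 0 members they lay below, against 9.93%.

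The calls of single members depended on single libraries. Those of Uqcrh, Cox7a2, Cox6b1, Ndufa7 and Atp5g3 were lost whichever of the 6 control or SFN libraries was left out. Without control replicate 1, 1 member (Uqcr10) was called with SFN, and without control replicate 2, SFN replicate 1, 2 or 3, the counts were 4, 6, 2 and 3. Without control replicate 3, none of the 14 calls was lost beyond those named above. No share of all tested genes is given for these fits. A general loss of calls with fewer libraries thus cannot be told apart from one particular to the members. Without the replicate block 0 were called, whereas the median log2 fold change stayed at 0.13.

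**Figure D2:**
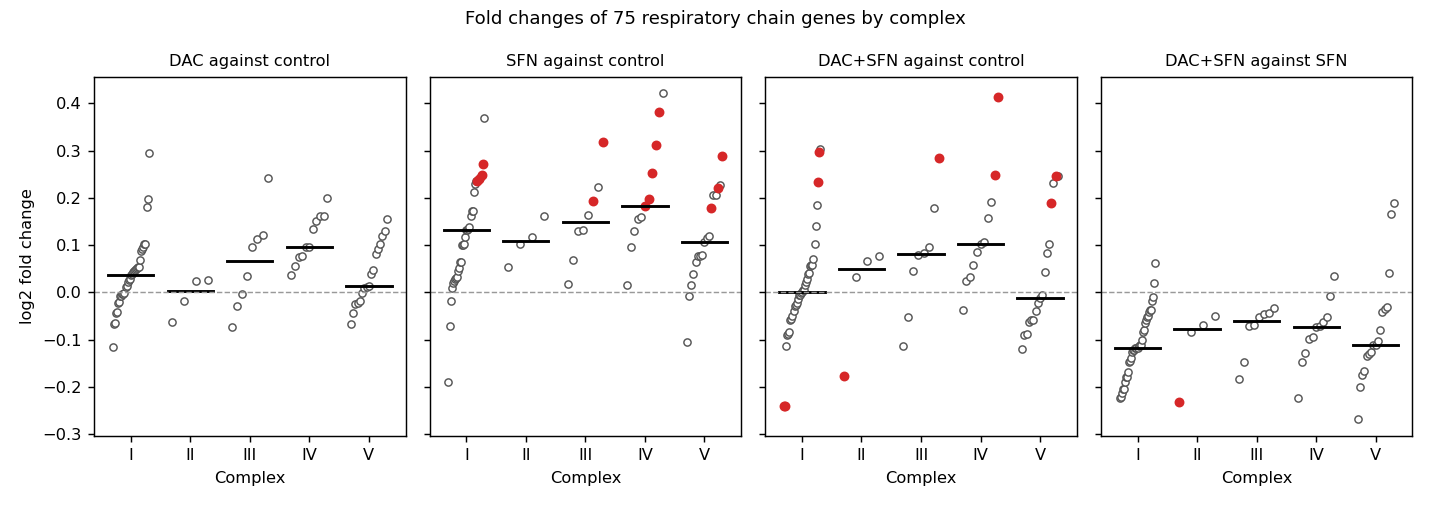
Log2 fold change of each of the 75 tested genes by complex in 4 comparisons. Filled red points were called at an adjusted p under 0.05, open points were not, and black lines are medians. With SFN the medians lie between 0.11 and 0.18 in all 5 complexes, and in DAC + SFN against SFN they lie between -0.12 and -0.06.

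The summed immune markers were 4.28 to 5.94 CPM in control, 7.62 to 13.9 CPM with SFN and 10.9 to 16.3 CPM with DAC + SFN, led by Cd68, with 5 of the 7 genes at 10 counts or less in every library, Adgre1 at 0 among them. The summed skeletal muscle and heart markers were 1.10 to 1.95 CPM in control, 4.19 to 7.49 CPM with SFN and 4.25 to 9.24 CPM with DAC + SFN, led by Tnnt2, with 3 of the 5 genes at 10 counts or less and Myh1 at 0. Fibroblast markers ranged from 19.96 to 320.5 CPM in control and from 19.6 to 250.4 CPM with SFN, and epithelial markers from 0.602 to 1.59 CPM over all libraries. The part of these markers in the members' shift was not tested.

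With DAC single treatment, 0 members were called. Over all tested genes 0.18% were called higher and 0% lower, and 0.0344% passed with a fold change over 2 as well. At an unadjusted p under 0.05 there were 3 members by edgeR and 4 by DESeq2, and DESeq2 called 1 of the 75 after adjustment (Uqcr10), against 0.713% of all tested genes. Over all tested genes, 1170 of 11638 had an unadjusted p under 0.05 by edgeR. The 3 members by edgeR, all with higher estimates, were Uqcr10, Ndufb6 and Ndufa7. Uqcr10 stood at 124, 125 and 122.5 CPM with DAC, above every control library, with a log2 fold change of 0.24 (SE 0.06, edgeR adjusted p = 0.111). Ndufb2 had the largest estimate, 0.29 (SE 0.15, adjusted p = 0.539), with 28.4, 30.95 and 38.7 CPM, overlapping the control range. The members' median log2 fold change was 0.04 against 0.005 over all genes, with replicate medians of 0.09, -0.02 and 0.03. In complex IV, all 11 tested members had positive estimates, with a median of 0.10.

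With DAC + SFN, 7 members were called higher and 3 lower compared to control. These shares, 9.33% and 4.00%, were below the background of 17% called higher and 14.7% called lower among all tested genes. With a fold change over 2 also required, 0 members were called against 2.66% of all tested genes. The higher members were Uqcr10, Ndufa7, Atp5l, Cox7b, Ndufb6, Atp5g1 and Cox8a, and the lower members were Ndufs8, Sdhb and Ndufv3. Of the 7, 6 were also among the 14 called with SFN (85.7% of the 7 and 42.9% of the 14), and both comparisons share the control libraries. The same overlap over all tested genes is not given, so these percentages have no background.

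Uqcr10 again had the smallest p. It stood at 122, 138 and 123 CPM with DAC + SFN, above all control libraries (log2 fold change 0.28, SE 0.06, edgeR adjusted p = 0.00162), and the call was kept under all 16 alternatives that change the fit, the samples or the filter, though not when a fold change over 2 was required. Ndufa7, an accessory subunit of complex I, stood at 52.7, 61.5 and 56.9 CPM in control and at 69.4, 79.0 and 62.15 CPM with DAC + SFN. The groups did not overlap, and the log2 fold change was 0.30 (SE 0.07, edgeR adjusted p = 0.00497). The call held in each of the 6 fits with 1 library left out. It was lost without the replicate block and with replicates 2 and 3 only. Cox7b (271, 285 and 322 CPM) and Atp5l (174, 189 and 207 CPM) also lay above all control libraries, with log2 fold changes of 0.25 (SE 0.07, edgeR adjusted p = 0.0157) and 0.25 (SE 0.07, adjusted p = 0.0142). Both calls were lost without control replicate 1, control replicate 3 or DAC + SFN replicate 3, with adjusted p up to 0.102 and 0.0818 over all alternatives.

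Cox8a had the largest fold change of the called members, 1.33-fold, and its replicates differed in direction. With 165, 237 and 158 CPM with DAC + SFN, its replicate differences were 0.62, 0.68 and -0.10, and the groups overlapped (log2 fold change 0.41, SE 0.14, edgeR adjusted p = 0.0386). The Cox8a call was lost without control replicate 1 or 2, without DAC + SFN replicate 1 or 2, and with DESeq2. It was also lost without the replicate block and with replicates 2 and 3 only.

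Of the 3 members that fell, 2 belong to complex I. Ndufs8, an iron-sulfur core subunit of complex I, stood at 65.2, 75.2 and 62.35 CPM in control and at 58.6, 63.6 and 49.3 CPM with DAC + SFN. The ranges overlapped, while every replicate was lower (log2 fold change -0.24, SE 0.07, edgeR adjusted p = 0.0155), and the call was lost without control replicate 2 or DAC + SFN replicate 3. Ndufv3, an accessory subunit of the NADH dehydrogenase module, stood at 87.45, 72.4 and 85.6 CPM in control and at 65.2, 75.9 and 65.8 CPM with DAC + SFN. It was lower in replicates 1 and 3 and slightly higher in replicate 2 (log2 fold change -0.24, SE 0.09, edgeR adjusted p = 0.0477). For Ndufv3 the call was lost without control replicate 1, control replicate 3, DAC + SFN replicate 1 or DAC + SFN replicate 3.

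The median log2 fold change of the members with DAC + SFN was 0.03, with 44 of 75 positive, against 0.008 over all tested genes. The members' median turned negative without DAC + SFN replicate 2. In 4 members all DAC + SFN libraries lay above all control libraries, against 15.1% of all tested genes, and in 3 (Sdhb, Ndufb9 and Ndufs4, the latter pair chosen after their values were seen) they lay below, against 14.3%. Without control replicate 1, control replicate 2 or DAC + SFN replicate 2 the counts of called members were 3, 5 and 6, and without the replicate block 1 member (Uqcr10) was called. Without DAC + SFN replicate 3, 13 were called. These counts have no share of all tested genes beside them, whereas the main count of 10 stood against 31.6%.

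**Figure D3:**
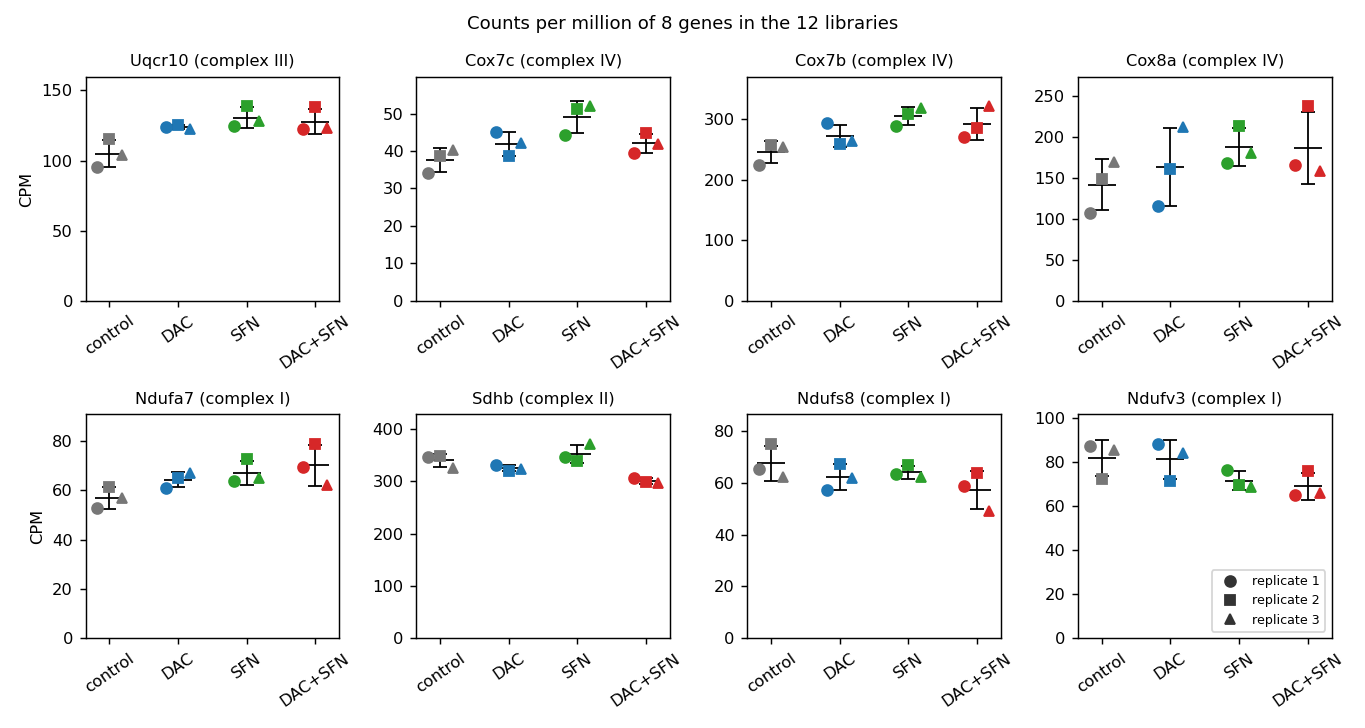
CPM of 8 genes in the 12 libraries, with marker shapes for replicates and black lines for the mean ± SD of 3 replicates per group. Uqcr10 and Cox7b lie above control in every treated library, Cox8a spreads widely within groups, and Sdhb is lowest with DAC + SFN.

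The 4 subunits of complex II, succinate dehydrogenase, also act in the citric acid cycle, and they did not move alike. Sdhb, the iron-sulfur subunit, stood at 347, 348 and 326 CPM in control, 332, 320.4 and 324 CPM with DAC, 348, 339 and 372 CPM with SFN and 307, 299 and 296 CPM with DAC + SFN. The DAC + SFN libraries were the lowest 3 of the 12. Compared to control the log2 fold change was -0.18 (SE 0.05, edgeR adjusted p = 0.0210), and compared to SFN it was -0.23 (SE 0.05, adjusted p = 0.0471). Sdhb was the single member called in DAC + SFN against SFN, where 0.67% of all tested genes were called lower and 0.937% higher. With only the SFN and DAC + SFN libraries in the model, 10 members were called lower, and 1221 of the 11638 tested genes were called in either direction. The call against control was lost without control replicate 1, control replicate 2 or DAC + SFN replicate 2, and the call against SFN was kept in 1 of the 6 fits that left out 1 library, the one without DAC + SFN replicate 3. Sdha, the flavoprotein subunit, and the membrane anchors Sdhc and Sdhd had log2 fold changes of 0.07, 0.08 and 0.03 with DAC + SFN compared to control and 0.12, 0.16 and 0.10 with SFN, none of them called.

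Compared to SFN, the members' estimates with DAC + SFN were lower in 69 of 75, against 5663 of the 11638 tested genes, with a median of -0.10 against 0.005 over all tested genes. In 19 members all DAC + SFN libraries lay below all SFN libraries, against 6.86% of all tested genes, and in 1 (Atp5sl) above, against 5.23%. At an unadjusted p under 0.05 there were 22 members, all lower, and 2072 of the 11638 tested genes, 984 of them lower. Atp5k, subunit e of the ATP synthase, had the largest estimate, ahead of Sdhb, with 35.3, 34.7 and 38.6 CPM with SFN and 27.4, 33.6 and 29.4 CPM with DAC + SFN. Its groups did not overlap, but it was not called (log2 fold change -0.27, SE 0.09, edgeR adjusted p = 0.146). Ndufb7, with the next largest estimate after Sdhb, stood at 75.2, 80.0 and 70.9 CPM with SFN and at 63.4, 77.15 and 53.8 CPM with DAC + SFN, which overlapped (log2 fold change -0.22, SE 0.08, adjusted p = 0.158). The median was lower within each replicate (-0.12, -0.04 and -0.16). Without DAC + SFN replicate 3 there were 3 calls, and without any other of the SFN or DAC + SFN libraries, or without the replicate block, there were 0.

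Compared to DAC, 0 members were called with DAC + SFN by edgeR or by DESeq2, against 9.55% of all tested genes higher and 6.6% lower by edgeR. At an unadjusted p under 0.05 there were 3 members by edgeR and 2 by DESeq2, while over all tested genes edgeR had 3553 of 11638. The largest estimates were those of Ndufv3 (-0.23, SE 0.09, edgeR adjusted p = 0.0828), Cox8a (0.21, SE 0.14, adjusted p = 0.335) and Atp5k (-0.17, SE 0.09, adjusted p = 0.253). The members' median was -0.004, with 37 of 75 positive and replicate medians of -0.08, 0.08 and -0.05. Without DAC + SFN replicate 3 there were 3 calls, and without DAC replicate 1, DAC replicate 3 or DAC + SFN replicate 2 there was 1. No share of all tested genes is given for these fits, and in the main fit it was 16.1%.

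The interaction asks whether SFN had the same effect with and without DAC. No member passed, and 0% of all tested genes did, by edgeR or by DESeq2. At an unadjusted p under 0.05 there were 21 members by edgeR, all with negative estimates, and 16 by DESeq2, while over all tested genes edgeR had 683 of 11638. The median over the members was -0.14, with 70 of 75 negative, against -0.007 over all tested genes. Among the 2900 tested genes with transcripts of up to 1752 bp it was -0.09, against -0.15 for the 65 members of that length. Of the 77 tested mitochondrial ribosome genes, 70 were negative and 7 positive, with a median of -0.12. The largest estimates were -0.39 (SE 0.12) for Cox7c, -0.37 (SE 0.13) for Atp5k and -0.36 (SE 0.21) for Ndufb2, with edgeR adjusted p of 0.847, 0.847 and 0.914. The estimates of the SFN effect, of DAC + SFN against SFN and of the interaction share libraries and are not separate evidence.

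When the members of each complex were summed, complex IV showed the widest step with SFN as a percentage of the control mean, and complex V the widest in CPM. The complex IV sum was 1828, 2013 and 2074 CPM in control and 2160, 2377 and 2215 CPM with SFN, so the groups did not overlap. With DAC it was 2032, 2123 and 2197 CPM, and with DAC + SFN 1994, 2384 and 2041 CPM, and both overlapped control. Complexes I, II, III and V summed with SFN to a mean of 3697, 1004, 1280 and 5972 CPM against 3454, 939.5, 1163 and 5614 CPM in control, and each overlapped control. The complex II sum with DAC + SFN (909, 932 and 929.9 CPM) lay below all SFN libraries (980.4, 992 and 1038 CPM). Such sums weigh abundant genes most, and complex V is led by Atp5b and Atp5a1.

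**Figure D4:**
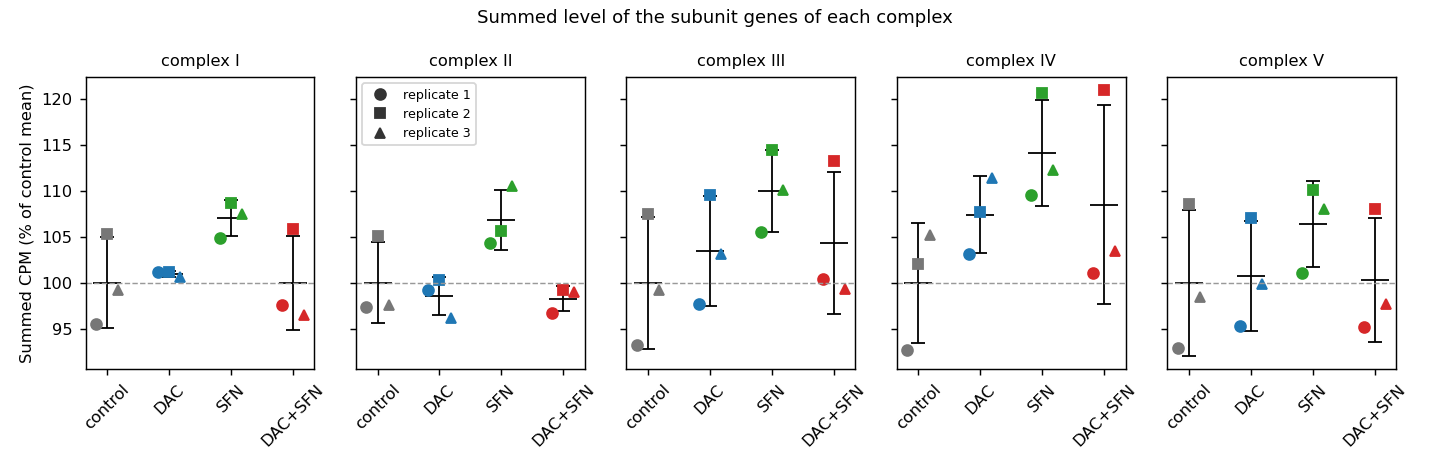
Summed CPM of the genes of each complex as a percentage of the control mean, with marker shapes for replicates and black lines for the mean ± SD of 3 replicates per group. Replicate 1 of control lies at 92.7% to 97.4% in all 5 complexes, and the SFN libraries lie at 101% to 121%.

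The members also varied between the repeats. The replicate number gave 27 members called in an F-test of edgeR, 36% of the 75, against 33.9% of all tested genes, so the members were near the background. The smallest p belonged to Atp5g1, Atp5g3, Ndufb10, Uqcrc1 and Atp5b. Atp5g1 was 0.37 higher on the log2 scale in replicate 2 than in replicate 1 (edgeR adjusted p = 0.000243), and Ndufb10 and Uqcrc1 were 0.33 and 0.36 higher. Atp5g3 was 0.16 higher in replicate 2 and 0.35 higher in replicate 3. Atp5b stood at 1704 to 1847 CPM in replicate 1 and at 2081 to 2106 CPM in replicate 2. Without control replicate 1, or without control replicate 2, 17 members were called for the replicate number. No share of all tested genes is given for these fits, so the 17 cannot be set against a background.

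Members are short transcripts, and length went with the fold change. Their median transcript length was 755 bp (321 to 2900 bp) against 2739 bp over the genes with a length. Across the 75 members, which share the libraries, Spearman's correlation of length with the log2 fold change was -0.41 with SFN, -0.43 with DAC, -0.13 with DAC + SFN, 0.27 in DAC + SFN against SFN and 0.53 for the interaction. Among the 2900 tested genes of up to 1752 bp, the median log2 fold change with SFN was 0.04, against 0.13 for the 65 members of that length. In DAC + SFN against SFN it was -0.06, against -0.11 for those members. For the interaction it was -0.09, against -0.15 for those members. The part of transcript length in these shifts was not tested.

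**Figure D5:**
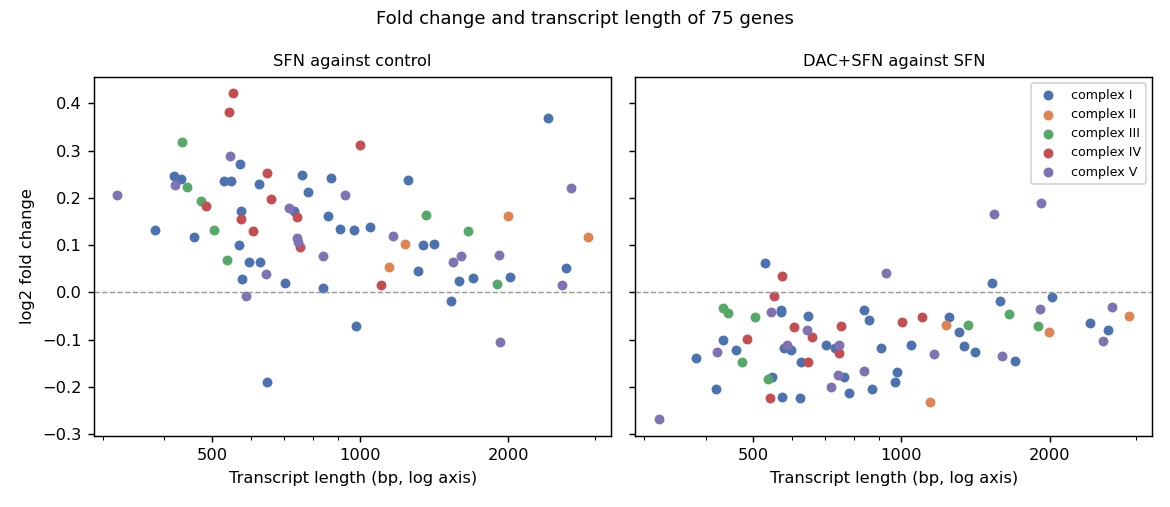
Log2 fold change against transcript length (bp, log axis) of the 75 tested genes, coloured by complex. Shorter transcripts lie higher with SFN (Spearman's correlation -0.41) and somewhat lower in DAC + SFN against SFN (0.27).

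Promoter windows of RefSeq (GRCm38.p6, from 250 bases before to 50 after the start site) were matched to 69 of the 84 members, in 75 windows, and were searched on both strands. The NRF1 core GCGCANGCG, which overlaps its own reverse complement, was in 28% of the members' windows and in 6.25% of all 32851 windows. CCGGAAG (ETS/GABP) was in 21.3% and 8.86%, AAGATGGCG (YY1) in 12% and 1.4%, TGACGTCA (CRE) in 5.33% and 1.79%, and TCAAGGTCA (estrogen-related receptor) in 2.67% and 0.423%. TGACNNNGC, the core of the antioxidant response element that NRF2 binds, was in 13.3% and 12.4%, and CCAAT in 42.7% and 37.4%. The median number of CpG dinucleotides was 19 per window in the members against 7 over all windows. In the 15 windows of the 14 members called higher with SFN, 2 held the NRF1 core, 4 the ETS letters, 0 the YY1 letters and 2 the antioxidant element core. In the 55 windows of the 50 tested members not called with SFN, the counts were 18, 12, 9 and 7 in that order. The difference was not tested. The set of all windows includes those of genes that were not tested here. These matches are letters only, and no binding or methylation was measured.

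Such windows are printed 5′ to 3′ on the gene's strand for 4 members, as examples with and without a call. They are Uqcr10 and Atp5g3 (called higher with SFN), Sdha (not called) and Sdhb (called lower with DAC + SFN). The Atp5g3 call was lost in each of the 6 fits that left out 1 control or SFN library. Sdha had a log2 fold change of 0.12 with SFN (edgeR unadjusted p = 0.0546), so a missing call is not a missing response. Capitals mark matches to any of the motifs above, CCAAT included. The windows lie at chr11:4704295-4704594 (minus strand), chr2:73911277-73911576 (minus), chr13:74350191-74350490 (minus) and chr4:140961021-140961320 (plus).
Uqcr10: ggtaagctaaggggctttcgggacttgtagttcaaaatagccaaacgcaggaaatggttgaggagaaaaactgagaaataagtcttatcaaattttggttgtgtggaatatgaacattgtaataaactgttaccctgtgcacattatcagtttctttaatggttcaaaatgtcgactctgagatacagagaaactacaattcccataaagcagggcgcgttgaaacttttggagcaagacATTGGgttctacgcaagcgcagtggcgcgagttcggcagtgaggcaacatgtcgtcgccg
Atp5g3: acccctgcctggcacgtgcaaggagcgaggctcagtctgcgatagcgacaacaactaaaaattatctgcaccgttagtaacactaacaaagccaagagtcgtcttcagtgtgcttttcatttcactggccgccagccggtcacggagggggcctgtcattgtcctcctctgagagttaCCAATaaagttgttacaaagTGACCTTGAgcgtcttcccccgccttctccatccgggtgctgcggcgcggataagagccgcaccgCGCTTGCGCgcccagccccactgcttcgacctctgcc
Sdha: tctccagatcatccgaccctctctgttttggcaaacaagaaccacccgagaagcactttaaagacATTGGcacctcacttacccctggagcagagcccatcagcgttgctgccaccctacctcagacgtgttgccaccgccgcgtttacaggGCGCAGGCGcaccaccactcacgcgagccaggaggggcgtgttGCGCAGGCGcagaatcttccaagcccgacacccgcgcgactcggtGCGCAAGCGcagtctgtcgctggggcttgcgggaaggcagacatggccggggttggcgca
Sdhb: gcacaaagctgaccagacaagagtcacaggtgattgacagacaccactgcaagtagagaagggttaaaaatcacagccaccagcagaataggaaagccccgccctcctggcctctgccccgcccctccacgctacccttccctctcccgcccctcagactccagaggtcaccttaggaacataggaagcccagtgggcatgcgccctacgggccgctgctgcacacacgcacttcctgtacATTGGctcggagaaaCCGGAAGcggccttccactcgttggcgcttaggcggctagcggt
Each of the 4 windows holds 1 CCAAT match, which is the only match in Uqcr10. Besides it, Atp5g3 holds an NRF1 core 13 bases after the start site and an estrogen-related receptor element, Sdha 3 NRF1 cores and Sdhb a single ETS match.

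Genes that work with the respiratory chain were described from lists chosen with earlier results of these data known. Their counts are to be read against all tested genes, where 8.27% of all tested genes were called higher and 5.65% lower with SFN, and 17% higher and 14.7% lower with DAC + SFN. Of 47 tested assembly factors, 3 were called higher and 0 lower with SFN, and 4 higher and 2 lower with DAC + SFN. Cox14 and Tmem70, which act in the assembly of complexes IV and V, rose in both. Cox14 averaged 48.4 ± 5.604 CPM in control and 65.6 ± 6.07 CPM after SFN (log2 fold change 0.44, SE 0.10, edgeR adjusted p = 0.0110), and 67.1 ± 11.9 CPM after DAC + SFN. Cox17, a copper chaperone for complex IV, rose with SFN, and Cox20 fell with DAC + SFN. A further list was headed electron carriers, which names the list and not each protein. Of its 18 tested genes, 2 were called higher with SFN (Prodh and Coq6) and 2 with DAC + SFN (Prodh and Coq10b), with 0 lower in each. Ndufab1, the acyl carrier subunit of complex I that the symbol rule leaves out, had a log2 fold change of 0.24 with SFN and was not called.

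Of 19 tested regulators of mitochondrial biogenesis, 1 was called higher and 1 lower with SFN, and 1 higher and 4 lower with DAC + SFN. Esrra, the estrogen-related receptor α, averaged 28.9 ± 6.33 CPM in control and rose to 38.9 ± 7.61 CPM after SFN (log2 fold change 0.44, SE 0.14, edgeR adjusted p = 0.0436) and to 43.3 ± 8.40 CPM after the combination. Gabpb2, a subunit of GABP, fell in both, with log2 fold changes of -0.22 and -0.27. Tfb1m, a methyltransferase for mitochondrial ribosomal RNA, fell with DAC + SFN.

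The mitochondrial ribosome translates the subunits that mitochondrial DNA encodes. Of its 77 tested genes, 3 were called higher with SFN (Mrps16, Mrpl36 and Mrpl53) and 0 lower, while 7 were called lower with DAC + SFN and 0 higher. Mrpl48, Mrps36 and Mrpl18 had the smallest p there, with log2 fold changes of -0.34, -0.41 and -0.30. In DAC + SFN against SFN 70 of the 77 estimates were negative, with a median of -0.10 (members -0.10). In that comparison 1 (Mrpl18) was called lower, against 0.67% of all tested genes. In DAC + SFN against DAC, 3 were called lower, against 6.6% of all tested genes. Whether the list and the members differ was not tested.

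Of 19 tested citric acid cycle genes, 2 were called higher and 1 lower with SFN, and 3 higher and 2 lower with DAC + SFN. Idh3a and Mdh2 rose with SFN, by 0.28 and 0.22. Idh2, the NADP-dependent mitochondrial isocitrate dehydrogenase, averaged 333 ± 6.62 CPM in control and fell to 249 ± 47.0 CPM after SFN and 209.6 ± 27.8 CPM after the combination, a log2 fold change of -0.43 (edgeR adjusted p = 0.00220) and -0.68 (adjusted p = 3.33e-05). Of 25 tested genes known to rise in low oxygen, 0 were called higher and 2 lower with SFN, and 1 higher and 7 lower with DAC + SFN, with medians of -0.20 and -0.30. The part of oxygen supply in the members' levels was not tested.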

How the data were processed

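RNA of 12 B16F10 cultures was sequenced as 75-base single-end reads on an Illumina NextSeq. The authors deposited raw read counts per gene symbol, one table per sample, without normalization. After FastQC 0.11.7 and trimming (Trimmomatic 0.38), the reads had been mapped by TopHat2 2.1.1 to mm10, and HTSeq in Blast2GO counted those with a unique alignment (versions from the submitters' processing notes). The gene annotation and strand setting are not given in the sources used here. Without strand, reads of a gene and an antisense partner could not be told apart, and reads shared by copies of a gene were dropped.

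Samples were grouped by their titles. Members were found by symbol, and the members and lists were chosen with earlier results of these data known. The 11638 genes reaching 1 CPM in 3 or more libraries were kept, scaled by TMM and tested with edgeR 4.0.16 (legacy glmQLFTest, prior count 0.125, two-sided) in R 4.3.3. All 12 samples entered 1 model with 4 groups and the replicate number as a block, since the study corrected for a batch effect. Over 18 pairs of samples with the same number in different groups, deviations from the group means correlated across genes from 0.27 to 0.732 (mean 0.544). Over the members alone, these correlations ran from -0.207 to 0.8 (mean 0.402). The numbers thus paired the samples over all tested genes, and less closely over the members. The library numbers in the labels follow the replicate numbers, and a batch of that kind cannot be told apart from them. No pair of replicates was a copy (chi-square of 13.6 to 37.5 per gene). The standard error (SE) of a log2 fold change was derived from the estimate and its F statistic. CPM values are TMM-normalized and given as mean ± SD (n = 3), and log2 replicate differences carry a prior count of 2. Transcript lengths, positions and shared 75-base stretches came from GENCODE M21 (GRCm38, the build of mm10), with 98.5% of symbols matched, and promoters from RefSeq.

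Named members were the 5 with the smallest p among those called per comparison and direction, the 3 with the largest fold change per comparison, the most abundant and the smallest p per complex, the isoform families, complex II, the 5 with the smallest p for the replicate number and all under the filter. Of the other lists, the 3 called genes with the smallest p per comparison with control were named, and further names were chosen after their values were seen. Alternatives were other scalings, DESeq2 1.42.0, edgeR's version 4 fit, other filters, no replicate block, only the groups compared, a fold change over 2, members without non-subunits, each sample left out and, chosen after seeing the data, replicates 2 and 3 only. The fits were tested on simulated data, for which no outcome is given here. How well they find changes as small as those of the members is therefore not known from that test. Intervals and floors cover counting error only. Figures were drawn with matplotlib 3.10.9.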

Additional observations from a re-analysis of the deposited data

How the results depend on the processing

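The median log2 fold changes of the members moved by less than the spread of the replicate medians under every alternative run. That of DAC + SFN turned to -0.0164 without DAC + SFN replicate 2. The SFN median stayed between 0.109 and 0.150 and that of DAC + SFN against SFN between -0.136 and -0.081. No called member reversed its sign. The counts of called members moved more. Scaling by library totals gave 0 calls in DAC + SFN against SFN (main 1), the upper quartile gave 1 in DAC + SFN against DAC (main 0), and no filter gave 1 and 2 in these comparisons with DAC and with SFN. Without the replicate block there were 0 calls with SFN (main 14), 1 with DAC + SFN (main 10) and 0 in DAC + SFN against SFN, and the block changed no other count of calls. With only the groups compared in the model, the counts were 4 with DAC, 22 with SFN, 6 with DAC + SFN and 10 in DAC + SFN against SFN, while 662, 1920, 2689 and 1221 of the 11638 tested genes were called. DESeq2 gave 1 with DAC and 2 in DAC + SFN against SFN, against 0.713% and 3.82% of all tested genes. A fold change over 2 as well left 0 with SFN, 0 with DAC + SFN and 0 in DAC + SFN against SFN. With 1 library left out, counts ranged from 1 to 13 with SFN, 3 to 13 with DAC + SFN, 0 to 3 in DAC + SFN against DAC, 0 to 3 in DAC + SFN against SFN and 17 to 34 for the replicate number. With replicates 2 and 3 only, chosen after seeing the data, there were 4 calls with SFN, 2 with DAC + SFN and 0 in DAC + SFN against SFN. Fewer samples entered these fits; for the other changes the cause was not tested. At these depths, 3 counts stand for 0.110 to 0.189 CPM, the limit for members at 0 counts.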
